A study of Mus musculus with 16 samples.

Results

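The mRNA of 7 CXC chemokine genes was followed in bone marrow-derived dendritic cells (BMDCs): Cxcl1, Cxcl2, Cxcl3, Cxcl5, Ppbp, Pf4 and Cxcl16. They were picked by name, with earlier results of these data known, as the mouse chemokines that attract neutrophils together with platelet factor 4 and Cxcl16, and all 7 were among the 23356 genes measured. BMDCs had been grown from bone marrow with GM-CSF and IL-4. They came from wild-type C57BL/6 (WT), Tmem173-/-, Irf1-/- and Irf3/7-/- mice and were left untreated or stimulated with the cyclic dinucleotide c-di-GMP for 18 h, at 25 ug/ml as labelled. This gave 8 conditions with 2 samples each, 16 in all, and the purpose of the study was to find which part of the response to c-di-GMP needs STING, the protein encoded by Tmem173, and which needs the transcription factors IRF1 or IRF3 and IRF7. The authors combined the 2 samples of a condition into 1 FPKM (fragments per kilobase of transcript by library size) with an interval, so no spread between cultures could be computed and no p-value is given.

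CXC chemokines are small secreted proteins that direct the movement of leukocytes. Those that carry the residues glutamate, leucine and arginine before their first cysteines, CXCL1, CXCL2, CXCL3, CXCL5 and the product of Ppbp (CXCL7), bind the receptor CXCR2 and draw neutrophils out of the blood. Pf4 (CXCL4) lacks these residues and is stored, with the Ppbp product, in platelet granules, and Cxcl16 encodes a transmembrane chemokine and scavenger receptor whose receptor CXCR6 is found on T and NK cells. In dendritic cells and macrophages, transcription of the inducible members is known to depend on NF-kB, and STING signals both to interferon regulatory factors and to NF-kB.

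A gene was compared between 2 conditions when it had at least 1 FPKM in either, and it was called changed when the difference was above 2-fold on the scale log2(FPKM + 0.1) and the authors' intervals did not overlap. Fold changes below are ratios of the FPKM as deposited, and log2 values are differences of log2(FPKM + 0.1). FPKM is scaled per length, so levels of different genes can be compared. The number of reads behind a value is unknown from FPKM. The authors' intervals covered, on each side, a median of 31.0% of the value over the 56 values of the 7 genes, and between 23.1% and 98.4%.

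The deleted genes were read first as a check of the labels. Tmem173 stood at 8.97 and 7.49 FPKM in untreated and treated Tmem173-/- BMDCs and at 103 and 118 FPKM in WT. Irf1 was at 25.9 and 116 FPKM in Irf1-/- BMDCs against 149 and 245 FPKM in WT. Irf7 was at 1.07 and 4.97 FPKM in the conditions labelled Irf3/7-/- against 15.2 and 687 FPKM in WT. Irf3, by contrast, was at 7.74 FPKM in the untreated condition labelled Irf3/7-/- but at 20.2 FPKM in the treated one, against 19.9 and 15.8 FPKM in WT, so Irf3 went against the label of the treated condition while Irf7 did not. Which exons are deleted, and whether transcript from other exons was counted, is not stated in the labels or the methods read here. Irf1 in treated Irf1-/- BMDCs was called lower than in treated WT, but it rose 4.46-fold with c-di-GMP and its interval, 82.8 to 149 FPKM, overlapped that of untreated WT, 113 to 185 FPKM. Irf1 was also at 24.1 and 23.3 FPKM in Tmem173-/- BMDCs, as low as in untreated Irf1-/-. The genotypes are therefore names taken from the labels, and every statement on treated Irf1-/- BMDCs and on treated BMDCs labelled Irf3/7-/- carries this limit.

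All but Cxcl16 of the 7 genes lie in a cluster on mouse chromosome 5, and they follow each other there in the order Cxcl5, Ppbp, Pf4, Cxcl3, Cxcl1 and Cxcl2. The cluster runs over 147 kb, from chr5:90759298 to 90905938, and the deposited positions overlapped the GRCm38.p6 gene of the same symbol for 98.9% of 21519 genes. Between Cxcl3 and Cxcl1 the table has 1 further row, listed under the symbol Il8, which reached at most 0.0124 FPKM. Cxcl16 lies apart on chromosome 11. The deposited locus of Cxcl16 is shared with the row of Zmynd15, and 18.2% of the 2853 stretches of 35 bases (the read length) in the Cxcl16 transcripts are also in Zmynd15 transcripts. Cxcl2 and Cxcl3 share 149 such stretches, in runs of up to 157 bases, which is 7.00% of those of Cxcl2. Reads from these stretches could have been divided between the genes, so the levels of Cxcl2 and Cxcl3 are to that extent not independent.

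Promoter sequences from RefSeq (GRCm38.p6, plus strand) were matched for 5 of the 7 genes, all but Cxcl5 and Cxcl16. They are shown because 3 of the 5 genes, Cxcl1, Cxcl2 and Cxcl3, rose together in WT and 2, Ppbp and Pf4, did not. Cxcl16 was also called higher in WT, so the promoters shown do not cover all genes that rose. Each line gives the 100 bases before the transcription start, 5′ to 3′, and capitals mark matches to an NF-kB type motif, the letters GGG, any 2 bases, then TTTCC, on either strand.
Cxcl1, chr5:90891145-90891244: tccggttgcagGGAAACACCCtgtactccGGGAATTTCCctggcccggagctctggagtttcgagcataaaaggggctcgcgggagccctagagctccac
Cxcl2, chr5:90903799-90903898: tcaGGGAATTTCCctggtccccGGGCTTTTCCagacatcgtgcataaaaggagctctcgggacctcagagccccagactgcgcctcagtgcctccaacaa
Cxcl3, chr5:90786001-90786100: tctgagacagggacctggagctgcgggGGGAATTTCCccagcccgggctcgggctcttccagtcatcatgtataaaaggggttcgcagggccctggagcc
Ppbp, chr5:90768418-90768517: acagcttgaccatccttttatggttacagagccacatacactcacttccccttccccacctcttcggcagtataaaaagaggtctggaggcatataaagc
Pf4, chr5:90772335-90772434: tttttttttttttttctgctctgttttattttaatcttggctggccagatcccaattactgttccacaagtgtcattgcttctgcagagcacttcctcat

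In windows from 250 bases before to 50 after the start, this motif was matched 2 times in Cxcl1, 2 times in Cxcl2 and 1 time in Cxcl3, and not in Ppbp or Pf4. All 5 matches lay between 97 and 62 bases before the start. Of 32851 promoters of the same length, 1.63% held the motif. An interferon-stimulated response element type motif, GAAA, any 2 bases, then GAAA, was matched in none of the 5 windows and in 3.44% of all promoters. TATAAA was matched 1 time in Cxcl3 and 2 times in Ppbp, and in 13.6% of all promoters. The 100 bases shown were 59.3% identical between Cxcl1 and Cxcl3, 47.7% between Cxcl1 and Cxcl2 and 41.4% between Cxcl2 and Cxcl3. The last lay below Cxcl1 with Ppbp, at 44.6%, and Cxcl3 with Ppbp, at 44.3%, and the lowest of the 10 pairs was Ppbp with Pf4, at 37.1%. A match is a string of letters and not a shown binding site.

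**Figure D1:**
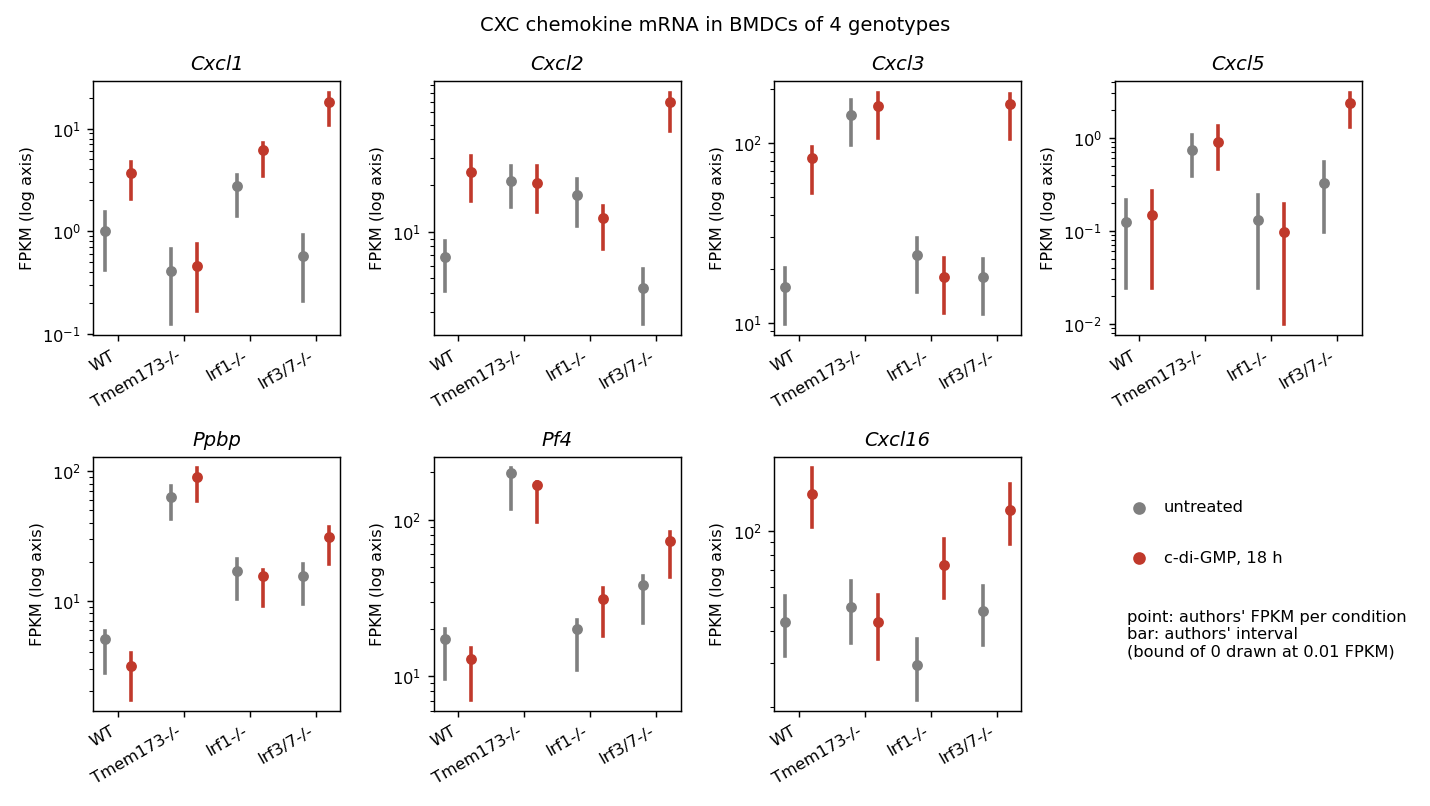
FPKM (log axis) of the 7 chemokine genes in BMDCs of 4 genotypes, untreated (grey) or stimulated with c-di-GMP (red). Points are the authors' values per condition and bars their intervals. Treated BMDCs labelled Irf3/7-/- had the highest values of Cxcl1, Cxcl2, Cxcl3 and Cxcl5, at 18.2, 70.4, 165 and 2.39 FPKM. For Cxcl3 and Cxcl5 their intervals overlapped those of treated Tmem173-/-. Ppbp and Pf4 were highest in Tmem173-/- BMDCs, at 90.5 and 199 FPKM.

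In WT BMDCs, c-di-GMP raised Cxcl1, Cxcl2, Cxcl3 and Cxcl16 between 3.23-fold and 5.18-fold, while Cxcl5, Ppbp and Pf4 were not called. These 4 of 7 genes were called higher and none lower, where 10.5% of the 11201 genes compared were called higher and 9.96% lower. Cxcl5 was under 1 FPKM in both conditions and was not compared. In Tmem173-/- BMDCs none of the 7 was called after c-di-GMP, where 0.046% of all genes compared were called higher and 0.0092% lower. In Irf1-/- BMDCs only Cxcl16 was called, as higher, against 9.67% of all genes higher and 7.81% lower. In BMDCs labelled Irf3/7-/-, 5 were called higher, Cxcl1, Cxcl2, Cxcl3, Cxcl5 and Cxcl16, against 10.2% of all genes higher and 7.68% lower.

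Among treated cells, Tmem173-/- BMDCs had Ppbp and Pf4 higher and Cxcl1 and Cxcl16 lower than WT, where 12.9% of all genes were called higher and 13.5% lower. Treated Irf1-/- BMDCs had Ppbp and Pf4 higher and Cxcl3 lower, where 2.65% of all genes were called higher and 4.91% lower. In treated BMDCs labelled Irf3/7-/-, 6 of the 7 genes were higher than in treated WT and only Cxcl16 was not called, where 4.61% of all genes were called higher and 2.69% lower. These 3 comparisons share the treated WT condition. Between the transcription factor knockouts, treated Irf1-/- BMDCs had 5 genes lower than treated BMDCs labelled Irf3/7-/-, namely Cxcl1, Cxcl2, Cxcl3, Cxcl5 and Pf4, where 3.22% of all genes were called higher and 6.62% lower.

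Levels already differed before stimulation. Untreated Tmem173-/- BMDCs had 4 of the 7 higher than untreated WT, Cxcl2, Cxcl3, Ppbp and Pf4, where 5.04% of all genes were called higher and 5.95% lower. Untreated Irf1-/- BMDCs had Cxcl2 and Ppbp higher, against 1.26% of all genes higher and 3.52% lower. Untreated BMDCs labelled Irf3/7-/- had Ppbp and Pf4 higher, against 1.17% of all genes higher and 0.863% lower. Untreated WT is the reference in all 3 of these comparisons. Ppbp was thus higher than in WT in every knockout, untreated and treated. In bulk samples, fewer cells of a type and less RNA per cell cannot be told apart.

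**Figure D2:**
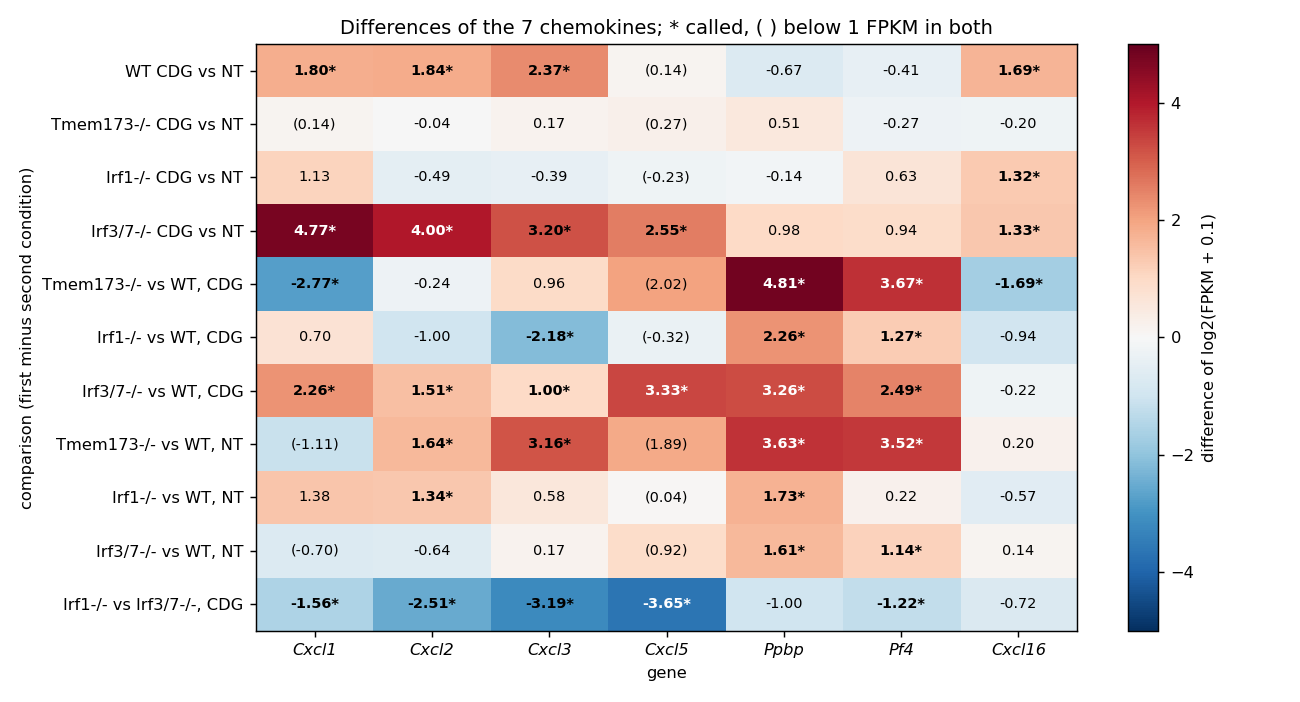
Difference of log2(FPKM + 0.1) of the 7 genes (columns) in 11 comparisons (rows), each the first condition minus the second. An asterisk marks a called difference, parentheses mark genes under 1 FPKM in both conditions, and NT and CDG stand for untreated and c-di-GMP-treated. The row of Tmem173-/- CDG vs NT holds no called value, and the row of Irf3/7-/- CDG vs NT reaches 4.77 for Cxcl1.

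Cxcl1 encodes the chemokine also called KC, a neutrophil attractant that macrophages and stromal cells release within hours of an inflammatory signal. It was at 0.998 FPKM in untreated and 3.72 FPKM in treated WT, with intervals of 0.419 to 1.55 and 2.05 to 4.69 FPKM. Tmem173-/- BMDCs had 0.410 FPKM untreated and 0.460 FPKM treated, and Irf1-/- BMDCs 2.76 and 6.13 FPKM. BMDCs labelled Irf3/7-/- had 0.575 FPKM untreated and 18.2 FPKM treated. The interval of that last condition, 10.9 to 22.4 FPKM, lay above those of the other 7 conditions, while neighbours lower in the order all had overlapping intervals.

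The rise of Cxcl1 was 3.73-fold in WT and 31.7-fold in BMDCs labelled Irf3/7-/-, with log2 differences of 1.80 and 4.77. Between the nearest bounds of the 2 intervals the ratio was still 1.32 in WT and 11.9 in BMDCs labelled Irf3/7-/-. The difference of 2.22-fold in Irf1-/- BMDCs was not called, because the intervals overlapped. Treated Tmem173-/- BMDCs were 8.09-fold below treated WT, and treated BMDCs labelled Irf3/7-/- were 4.90-fold above it. Cxcl1 was a minor part of the CXCR2 ligands, between 0.168% and 11.8% of their summed FPKM.

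Cxcl2 encodes MIP-2, which macrophages and mast cells release early in inflammation. WT BMDCs had 6.79 FPKM untreated and 24.6 FPKM treated. The Tmem173-/- values were 21.3 and 20.8 FPKM and the Irf1-/- values 17.3 and 12.3 FPKM. BMDCs labelled Irf3/7-/- moved from the lowest value of the 8 conditions, 4.31 FPKM, to the highest, 70.4 FPKM, which was 16.3-fold and the only condition apart from its neighbour in the order. Untreated Tmem173-/- and Irf1-/- BMDCs were 3.14-fold and 2.55-fold above untreated WT, and their intervals did not overlap that of WT. Untreated Tmem173-/- BMDCs thus overlapped treated WT, and the log2 difference of the treated conditions was -0.24. In treated Irf1-/- BMDCs Cxcl2 was 2.005-fold lower than in treated WT with separate intervals, and just short of a call at -0.997 on the log2 scale.

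Cxcl3 encodes a close relative of MIP-2 and was the most abundant CXCR2 ligand in each of the 8 conditions, from 34.8% of the summed FPKM of the 5 genes in treated Irf1-/- to 72.3% in treated WT. It rose from 15.9 to 82.4 FPKM in WT, and from 18.0 to 165 FPKM in BMDCs labelled Irf3/7-/-, which was 5.18-fold and 9.21-fold. Irf1-/- BMDCs stayed at 23.7 and 18.1 FPKM, with overlapping intervals. Tmem173-/- BMDCs had 143 FPKM untreated and 161 FPKM treated, 8.999-fold above untreated WT before any stimulus. The conditions fell into 3 levels separated by their intervals: both Tmem173-/- conditions with treated Irf3/7-/-, then treated WT alone, then the 4 others.

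Treated Irf1-/- BMDCs had 4.56-fold less Cxcl3 than treated WT and 9.15-fold less than treated BMDCs labelled Irf3/7-/-. Against treated WT, Cxcl3 in BMDCs labelled Irf3/7-/- was 2.01-fold higher, at a log2 difference of 1.004 that lies at the limit of a call, and its intervals were separated by a ratio of 1.11. In treated Tmem173-/- BMDCs the difference of 0.96 on the log2 scale missed that limit, also with separate intervals. The ratio of Cxcl3 to Cxcl2 was between 6.71 and 7.72 in Tmem173-/- BMDCs and between 1.37 and 4.17 in the other genotypes.

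Cxcl5 encodes LIX, which epithelial cells and platelets are known to make. It was the lowest of the 7 genes in all 8 conditions but 2, the Tmem173-/- conditions, where Cxcl1 was lower. WT BMDCs had 0.125 and 0.147 FPKM, Irf1-/- BMDCs 0.132 and 0.0976 FPKM, and Tmem173-/- BMDCs 0.732 and 0.901 FPKM. In BMDCs labelled Irf3/7-/- it was at 0.325 FPKM untreated and 2.39 FPKM treated, a rise of 7.34-fold, and the latter was the only value above 1 FPKM. That value was 16.2-fold that of treated WT. The Tmem173-/- intervals also lay apart from those of WT, with values 5.86-fold and 6.12-fold higher and ratios of 1.78 and 1.73 between the nearest bounds, untreated and treated, but under 1 FPKM they could not be called. The lower bounds in WT and Irf1-/- were between 0 and 0.0240 FPKM, so no fold against them is firm.

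Ppbp encodes platelet basic protein, the precursor of CXCL7, which becomes active when neutrophil cathepsin G trims it. WT had the lowest values, 5.06 FPKM untreated and 3.13 FPKM treated. Tmem173-/- BMDCs had 63.6 and 90.5 FPKM, Irf1-/- BMDCs 16.97 and 15.4 FPKM, and BMDCs labelled Irf3/7-/- 15.6 and 30.9 FPKM. The intervals placed both Tmem173-/- conditions above the other 6 and both WT conditions below the other 6. No genotype showed a called change with c-di-GMP. The nearest was a 1.98-fold difference in BMDCs labelled Irf3/7-/- with overlapping intervals.

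Treated Tmem173-/- BMDCs had 28.9-fold more Ppbp than treated WT, and a ratio of 14.9 remained between the nearest bounds. In treated Irf1-/- BMDCs the difference from WT was 4.92-fold, and in treated BMDCs labelled Irf3/7-/- it was 9.85-fold. Untreated, the same 3 knockouts were 12.6-fold, 3.35-fold and 3.08-fold above WT. Treated Irf1-/- and BMDCs labelled Irf3/7-/- differed by 2.002-fold with separate intervals, which at -0.997 on the log2 scale fell just short of a call. Ctsg, the gene of cathepsin G, was likewise called higher than in WT in all 3 knockouts, untreated and treated, with 22.1 and 16.2 FPKM in Tmem173-/- against 6.44 and 6.11 FPKM in WT.

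Pf4 encodes platelet factor 4, which binds heparin and other glycosaminoglycans. It was at 17.3 and 12.9 FPKM in untreated and treated WT, at 199 and 166 FPKM in Tmem173-/-, at 20.1 and 31.3 FPKM in Irf1-/-, and at 38.2 and 73.3 FPKM in BMDCs labelled Irf3/7-/-. As with Ppbp, both Tmem173-/- conditions lay above the other 6 by their intervals. Unlike Ppbp, the order below them had no gap. Pf4 exceeded WT by 11.5-fold untreated and 12.8-fold treated in Tmem173-/- BMDCs, by 2.21-fold and 5.66-fold in BMDCs labelled Irf3/7-/-, and by 2.42-fold in treated Irf1-/- BMDCs. The difference of 1.17-fold in untreated Irf1-/- BMDCs was not called, nor was any change with c-di-GMP. The ratio of Pf4 to Ppbp ranged from 1.19 in untreated Irf1-/- to 4.13 in treated WT.

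Cxcl16 had the smallest range of the 7 genes, 4.79-fold between its lowest and highest value. Treated WT had 140 FPKM and untreated WT 43.5 FPKM, a 3.23-fold rise. The treated values were 121 FPKM in BMDCs labelled Irf3/7-/- and 73.2 FPKM in Irf1-/- BMDCs, from 48.0 and 29.3 FPKM untreated, so the rises were 2.52-fold and 2.50-fold. Tmem173-/- BMDCs had 49.8 FPKM untreated and 43.4 FPKM treated, with overlapping intervals. Treated Tmem173-/- BMDCs were 3.24-fold below treated WT. Treated Irf1-/- BMDCs were 1.92-fold below treated WT, with separate intervals but under the fold needed for a call. Zmynd15, whose row shares the locus, was between 2.54 and 4.001 FPKM.

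Set against the log2 change in WT, the change in Tmem173-/- BMDCs came to 7.51% for Cxcl1, -1.93% for Cxcl2, 7.04% for Cxcl3 and -11.8% for Cxcl16. By value, the genes parted in Irf1-/- BMDCs. There Cxcl16 kept 78.0% and Cxcl1 62.5% of the WT change, and Cxcl2 and Cxcl3 gave -26.8% and -16.6%. Of these changes in Irf1-/-, only that of Cxcl16 was called. In BMDCs labelled Irf3/7-/- the values were 78.8% for Cxcl16, 135% for Cxcl3, 217% for Cxcl2 and 265% for Cxcl1. These shares depend on both the untreated and the treated value of each genotype, and with 1 value per condition they carry no error of their own.

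The 5 CXCR2 ligands summed to 28.9 FPKM in untreated and 114 FPKM in treated WT, and to 38.8 and 287 FPKM in BMDCs labelled Irf3/7-/-. In Irf1-/- BMDCs the sums were 60.9 and 52.0 FPKM. Tmem173-/- BMDCs had 229 and 273 FPKM, so their untreated sum was above that of treated WT. The make-up differed as well: Cxcl1, Cxcl2 and Cxcl3 together made 97.1% of the sum in treated WT and 66.6% in treated Tmem173-/-, where Ppbp made 33.1%.

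**Figure D3:**
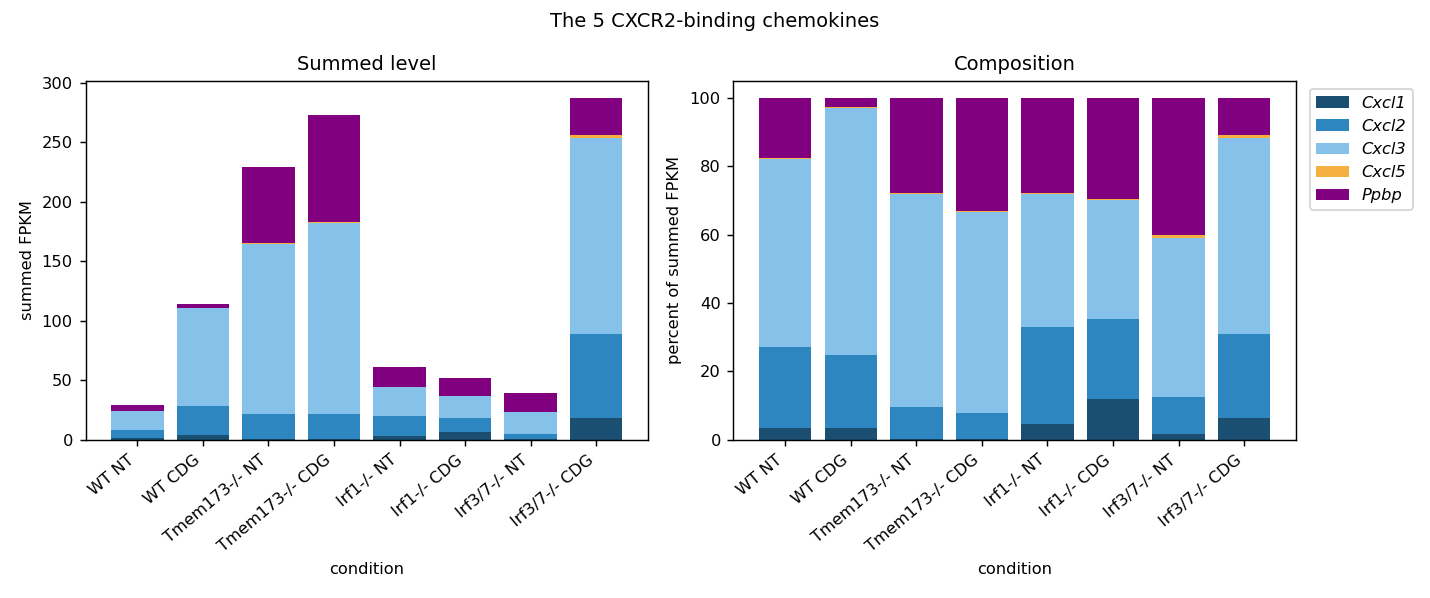
Summed FPKM (left) and percent of that sum (right) of the 5 CXCR2-binding chemokines in the 8 conditions, stacked by gene (NT untreated, CDG c-di-GMP). The sum was 28.9 FPKM in untreated WT and 287 FPKM in treated Irf3/7-/-, and Cxcl3 was the largest part of each bar. The bars carry no error, since each value is 1 per condition.

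To find genes with similar profiles, log2(FPKM + 0.1) values over the 8 conditions were centred on their mean and compared by the root mean square difference among 9269 genes that reached 5 FPKM. The nearest gene to both Ppbp and Pf4 was Uchl1, a ubiquitin hydrolase, at 0.40 and 0.43 on the log2 scale, with 59.0 and 51.1 FPKM in untreated and treated Tmem173-/- against 3.94 and 2.16 FPKM in WT. Pf4 was the second nearest to Ppbp, at 0.52, and Akr1b8, an aldo-keto reductase, was the third nearest to both, at 0.59 from Ppbp and 0.48 from Pf4. Wfdc17, which was the second nearest to Pf4 at 0.46, reached 1016 FPKM in untreated Tmem173-/- BMDCs. Ppbp and Pf4 were thus nearer to each other than to the neighbouring members of their cluster.

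The nearest genes to Cxcl16 were Rffl at 0.17, Wdr92 at 0.19 and Cd82 at 0.19, a closer likeness than for any other member. Cxcl3 had Ampd3 at 0.54, the C-type lectin gene Clec4d at 0.59 and the iron exporter gene Slc40a1 at 0.61. For Cxcl2 these were Vwf at 0.61, Fos at 0.64 and Slc22a4 at 0.64. Cxcl1 was least well matched, with Serpine2 at 0.68, Nlgn2 at 0.69 and Cd70 at 0.75. Cxcl5 was nearest to Nqo1 at 0.53, Ampd3 at 0.60 and Acss2 at 0.60. Cxcl5 itself reached at most 2.39 FPKM, below the 5 FPKM asked of the genes it was compared with. Its WT and Irf1-/- values, between 0.0976 and 0.147 FPKM, were close to the 0.1 added before the log, so its profile is not firm. Over 8 conditions, such likeness is a description. The measure was not scaled to the range of a profile, so its size is not comparable between members of different range. Cxcl16 had the smallest range, 4.79-fold, and Cxcl1 the largest, 44.5-fold.

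Of 8 genes for receptors and binding proteins of these chemokines, 4 were above 1 FPKM in treated or untreated WT. Cxcr2, the receptor of the neutrophil attractants, fell from 72.4 to 7.20 FPKM in WT, from 116.6 to 16.5 FPKM in Irf1-/- and from 58.7 to 4.71 FPKM in BMDCs labelled Irf3/7-/-, and was at 15.4 and 16.4 FPKM in Tmem173-/-. It thus fell in each genotype in which c-di-GMP changed any of the 7 genes. Cxcr6, the receptor of CXCL16, rose from 10.5 to 27.4 FPKM in BMDCs labelled Irf3/7-/- and was at 4.34 and 5.52 FPKM in WT and 0.105 and 0.126 FPKM in Tmem173-/-. Sdc4, a heparan sulfate proteoglycan, rose from 24.0 to 84.2 FPKM in WT and from 30.9 to 201 FPKM in Irf1-/-. Cxcr1 was under 0.1 FPKM in all 8 conditions, and Cxcr3, the scavenger Darc and the scavenger Ccbp2 were under 0.3 FPKM.

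**Figure D4:**
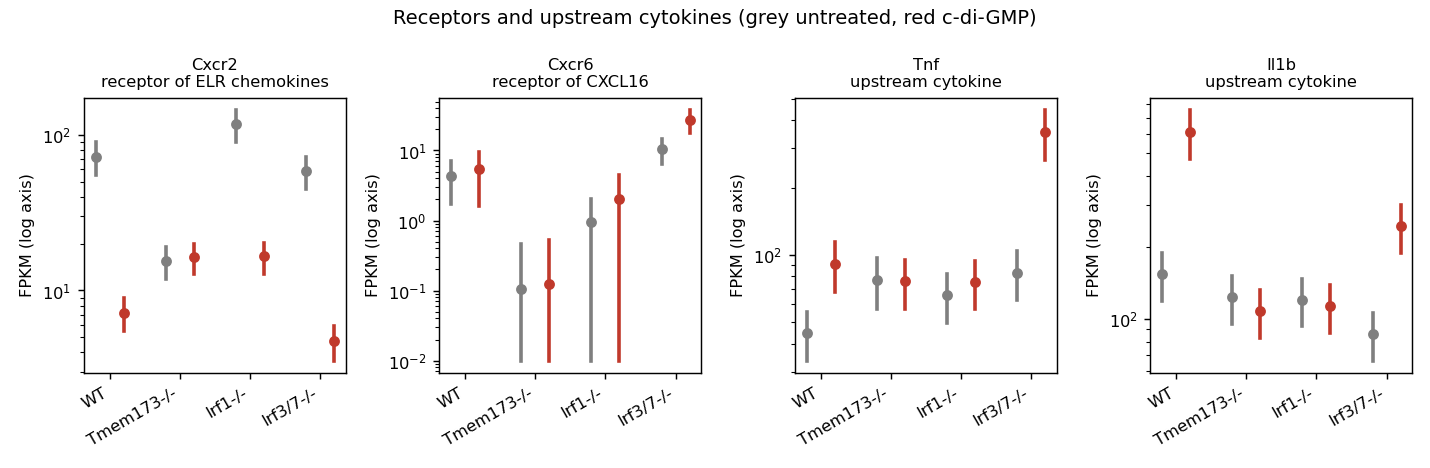
FPKM (log axis) of Cxcr2, Cxcr6, Tnf and Il1b in the 4 genotypes, untreated (grey) or c-di-GMP-treated (red), with the authors' intervals as bars (a bound of 0 is drawn at 0.01 FPKM). Cxcr2 fell from 72.4 to 7.20 FPKM in WT, and Tnf reached 355 FPKM in treated Irf3/7-/-.

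Other CXC chemokines were read for comparison. Of 7 such genes, 2 were called higher with c-di-GMP in each of WT, Irf1-/- and BMDCs labelled Irf3/7-/-, and none was called in Tmem173-/-. The 2 were Cxcl9 and Cxcl10 in WT and Irf1-/-, but Cxcl10 and Cxcl11 in BMDCs labelled Irf3/7-/-. Cxcl14 fell from 1.94 to 0.591 FPKM in Irf1-/- BMDCs and from 1.29 to 0.295 FPKM in BMDCs labelled Irf3/7-/-. Cxcl10, a ligand of CXCR3, rose from 24.1 to 1037 FPKM in WT, from 4.06 to 483 FPKM in Irf1-/- and from 21.6 to 315 FPKM in BMDCs labelled Irf3/7-/-. Cxcl9 rose from 21.7 to 52.2 FPKM in WT and from 0.947 to 15.4 FPKM in Irf1-/-. In BMDCs labelled Irf3/7-/- it was at 25.0 and 35.1 FPKM with overlapping intervals, and Cxcl11 reached 36.8 FPKM in the treated ones. By value, Cxcl11 also rose from 0.156 to 22.7 FPKM in WT and from 0 to 7.29 FPKM in Irf1-/-. These rises were not called, because the wide treated intervals, 0.166 to 50.5 FPKM and 0 to 17.8 FPKM, overlapped the untreated ones. Treated BMDCs labelled Irf3/7-/- thus had less Cxcl10 and more Cxcl1, Cxcl2, Cxcl3 and Cxcl5 than treated WT.

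Cytokines that act upstream of these chemokines, their receptors and the interleukin-1 antagonist gene Il1rn were compared as a list of 13 genes, so the counts are not of inducing cytokines alone. In WT 7 of the 10 compared were higher after c-di-GMP and 1 lower, with a median log2 difference of 1.596 against 0.0033 over all genes. In BMDCs labelled Irf3/7-/- 8 of 11 were higher, with a median of 1.53, and in Irf1-/- BMDCs 2 of 10 were higher and 1 lower, with a median of 0.61. None was called in Tmem173-/-. The 7 in WT include Il1rn, which rose from 114 to 952 FPKM, and the receptor gene Il17ra, which rose from 4.11 to 11.1 FPKM. Tnf, which encodes the tumour necrosis factor, rose from 44.6 to 91.1 FPKM in WT and from 83.1 to 355 FPKM in BMDCs labelled Irf3/7-/-. Il1b rose from 154 to 611 FPKM in WT and from 85.9 to 245 FPKM in BMDCs labelled Irf3/7-/-. It stood at 120 and 113 FPKM in Irf1-/- and at 123 and 107 FPKM in Tmem173-/-. Cxcl2 and Cxcl3 were not called after c-di-GMP in Irf1-/- or Tmem173-/-, but Cxcl3 was at 143 and 161 FPKM in Tmem173-/-. Treated BMDCs labelled Irf3/7-/- had less Il1b than treated WT and more Cxcl2 and Cxcl3. A link between Il1b and these chemokines was not tested. Il6 rose from 21.5 to 339 FPKM in WT and from 13.5 to 228 FPKM in Irf1-/- BMDCs. In BMDCs labelled Irf3/7-/- it rose from 17.5 to 580 FPKM. Il17a was listed at 0 in all 8 conditions.

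Of 14 genes for NF-kB subunits, inhibitors and mRNA stability factors, 3 were higher after c-di-GMP in WT, 3 in Irf1-/-, 5 in BMDCs labelled Irf3/7-/- and none in Tmem173-/-, with no gene lower. Nfkb2 rose from 92.7 to 205 FPKM in WT and from 98.3 to 215 FPKM in Irf1-/-. Nfkbia, the inhibitor that NF-kB itself induces, reached 486 FPKM in treated BMDCs labelled Irf3/7-/- and 396 FPKM in treated WT. Zfp36, which promotes decay of chemokine and Tnf mRNA, was at 119 FPKM in treated WT and 124 FPKM in treated BMDCs labelled Irf3/7-/-. Against treated WT, 1 of the 14 was higher and 1 lower in treated BMDCs labelled Irf3/7-/-, none was called in treated Irf1-/-, and 8 were lower in treated Tmem173-/-. The gene higher in treated BMDCs labelled Irf3/7-/- was Nfkbiz, at 22.3 against 6.71 FPKM. The lower gene was Zfp36l1, at 43.5 against 106 FPKM.

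Proteases that shed or trim CXC chemokines were called lower after c-di-GMP in 3 of 9 cases in WT and 2 of 9 in Irf1-/-, and in none in the other genotypes. In treated Tmem173-/- BMDCs 5 of 9 were higher than in treated WT, with a median log2 difference of 2.89 against 0.018 over all genes. Adam10, the sheddase of CXCL16, was at 39.9 and 27.2 FPKM in WT and at 42.8 and 55.0 FPKM in Tmem173-/-. Mmp9, which can trim CXCR2 ligands, was at 106 and 105 FPKM in Tmem173-/- against 17.9 and 6.78 FPKM in WT. Of 10 genes that neighbour the chromosome 5 cluster, 2 exceeded 1 FPKM anywhere: Afp, at most 2.44 FPKM, and Mthfd2l, at most 1.56 FPKM, and both were higher in untreated Tmem173-/- than in untreated WT.

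Since Ppbp and Pf4 are known as platelet genes, platelet and megakaryocyte markers were read beside them. The 12 markers summed to 14.98 and 15.5 FPKM in untreated and treated Tmem173-/-, where Ppbp and Pf4 were highest. They summed to 24.8 and 23.4 FPKM in WT, 32.9 and 26.7 FPKM in Irf1-/-, and 34.1 and 67.0 FPKM in BMDCs labelled Irf3/7-/-. Itgb3, which is not particular to platelets, made between 20.4% and 70.9% of these sums, and was at 3.05 FPKM in untreated Tmem173-/- and 17.6 FPKM in untreated WT. Without Itgb3, left out after the values were seen, untreated WT had the lowest sum, 7.21 FPKM against 11.9 FPKM in untreated Tmem173-/-, while treated WT had 16.3 FPKM against 11.8 FPKM. The order of untreated Tmem173-/- and WT thus turned on that gene. By value, 9 of the 12 markers were higher in untreated Tmem173-/- than in untreated WT, and of the 5 compared Clec1b was called higher and Itgb3 lower. Gp9, a platelet glycoprotein gene, was at 1.07 FPKM in untreated Tmem173-/- and 0.318 FPKM in untreated WT, and Clec1b at 2.42 and 0.629 FPKM. No platelet marker was at 0 in any condition. In treated BMDCs labelled Irf3/7-/- 8 of the 11 markers compared were higher than in treated WT, with a median log2 difference of 1.91 against -0.022 over all genes, and in treated Tmem173-/- none of 6 was higher and 1 was lower. Their part in the Ppbp and Pf4 differences was not tested.

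**Figure D5:**
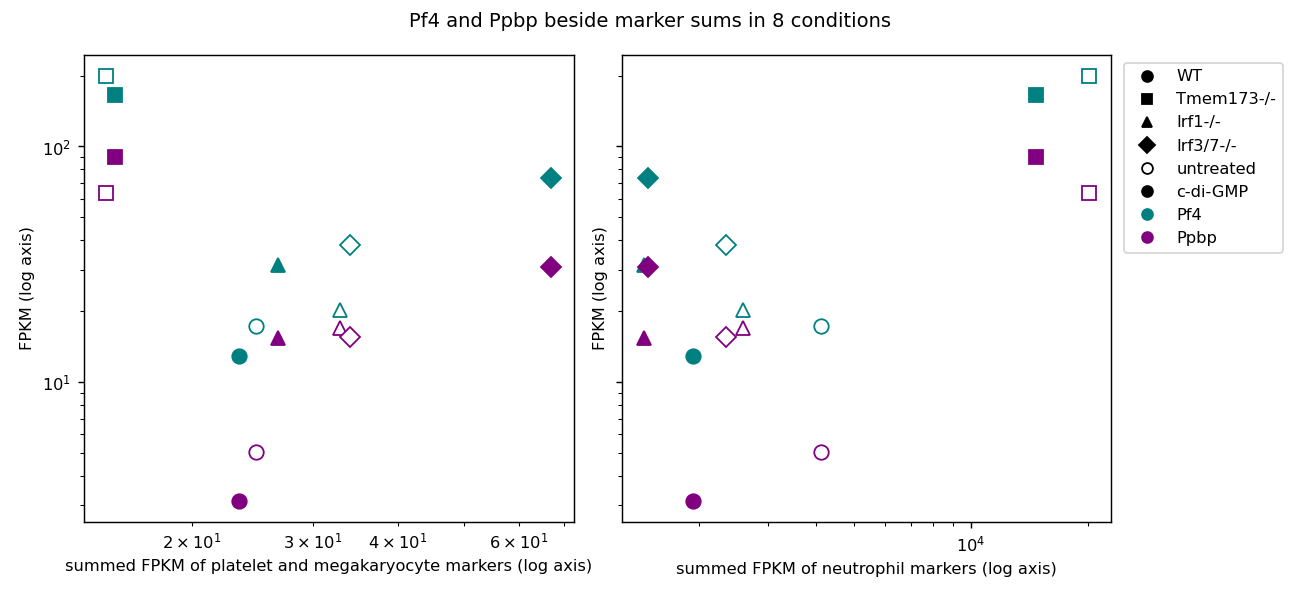
FPKM (log axis) of Pf4 (green) and Ppbp (purple) against the summed FPKM (log axis) of 12 platelet and megakaryocyte markers (left) and 11 neutrophil markers (right) in the 8 conditions. Shapes stand for genotypes, open symbols for untreated and filled symbols for c-di-GMP-treated BMDCs. Both Tmem173-/- conditions lie at the highest neutrophil sums, 20116 and 14683 FPKM. Their platelet sums, 14.98 and 15.5 FPKM, are the lowest only with Itgb3 included, and without it the lowest is untreated WT at 7.21 FPKM.

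Neutrophil markers moved with the Tmem173-/- genotype. The 11 markers measured summed to 20116 and 14683 FPKM in untreated and treated Tmem173-/-, and to between 1439 and 4106 FPKM in the other 6 conditions. Against WT, 9 of 11 were higher and 1 lower untreated, and 10 of 11 were higher treated, with median log2 differences of 2.63 and 2.77. S100a8 was at 10351 and 7513 FPKM in Tmem173-/- against 2531 and 1105 FPKM in WT, and Ngp, a granule protein gene, at 743 and 620 FPKM against 93.4 and 104 FPKM. In every condition the S100a8 value lay above its own interval, whose upper bound was 10137 FPKM in untreated Tmem173-/- and 2169 FPKM in untreated WT. Over all genes, 635 of 86320 values of at least 1 FPKM lay outside their interval, and 0 of the 56 values of the 7 chemokine genes. The marker that was lower in untreated Tmem173-/- was Cxcr2. None of the 11 was at 0. These values stand beside the higher Cxcl2, Cxcl3, Ppbp and Pf4 of untreated Tmem173-/- BMDCs, and their part in those differences was not tested. Treated BMDCs labelled Irf3/7-/- had the highest values of Cxcl1, Cxcl2, Cxcl3 and Cxcl5. For Cxcl3 and Cxcl5 the intervals overlapped those of treated Tmem173-/-, where neutrophil markers were high. The neutrophil sum in treated BMDCs labelled Irf3/7-/- was 1477 FPKM against 1924 FPKM in treated WT. Without S100a8 and S100a9, which made between 90.1% and 94.5% of the sums in the 8 conditions, it was 125 FPKM against 176 FPKM. Of the 11 markers, 3 were called higher there than in treated WT, Mpo at 13.7 against 2.90 FPKM, Mmp8 at 15.4 against 4.87 FPKM and Retnlg at 5.62 against 1.87 FPKM, and 2, Ngp and Ltf, lower.

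T and NK cell markers moved with genotype as well. The 9 measured summed to 1.47 and 1.49 FPKM in untreated and treated Tmem173-/-, 6.16 and 9.89 FPKM in Irf1-/-, 70.3 and 49.3 FPKM in WT, and 99.9 and 169 FPKM in BMDCs labelled Irf3/7-/-. Cd8a reached 60.8 FPKM in treated BMDCs labelled Irf3/7-/- and Cd3g 35.4 FPKM. In that condition 6 of 6 compared were higher than in treated WT, and Ncr1 was the only marker of the list at 0 in any condition. With c-di-GMP, 0 of 7 compared were called higher in BMDCs labelled Irf3/7-/-. The 1 called lower was Klrb1c, from 4.05 to 0.618 FPKM. Ncr1 was at most 0.661 FPKM and Cd4 at most 0.154 FPKM in any condition. Cxcr6, which T and NK cells express, followed the same order of genotypes. The part of these cells in the levels of the 7 genes was not tested.

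Markers of dendritic cells were high in all conditions, with sums from 4844 to 8745 FPKM, of which Cd74, the invariant chain gene, made between 49.8% and 73.6%. H2-Aa was between 364 and 1424 FPKM and Itgax between 135 and 369 FPKM, while Flt3 was between 1.17 and 2.75 FPKM, and Cd209a was at most 3.10 FPKM and at 0 in treated WT. H2-Aa, H2-Ab1 and Ciita, all of the MHC class II pathway, were called lower in Irf1-/- than in WT, untreated and treated. Ccr7, which marks matured dendritic cells, rose from 265 to 1257 FPKM in WT, from 235 to 1026 FPKM in Irf1-/- and from 171 to 1208 FPKM in BMDCs labelled Irf3/7-/-, and was at 130 and 114 FPKM in Tmem173-/-. Macrophage and monocyte markers summed to between 377 and 1077 FPKM, and against treated WT 6 of 11 were higher and 2 lower in treated Tmem173-/- and 1 higher and 6 lower in treated Irf1-/-. Cd14 was at 18.5 and 181 FPKM in WT, 181 and 151 FPKM in Tmem173-/-, 10.6 and 12.9 FPKM in Irf1-/- and 8.57 and 84.2 FPKM in BMDCs labelled Irf3/7-/-. Like Cxcl3, Cd14 was thus low in untreated WT, in both Irf1-/- conditions and in untreated BMDCs labelled Irf3/7-/-. Of 9 stromal markers only Thy1 and Col1a2 exceeded 1 FPKM, and Col1a2 was at 6.78 FPKM in treated WT and at most 1.04 FPKM elsewhere.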

How the data were processed

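RNA-seq of 16 BMDC samples, 2 for each of 8 conditions, was analysed from a table of 23356 genes. Stranded libraries had been sequenced as paired-end reads of 35 bases. The authors normalised to FPKM with Cuffdiff, for which the submitters' processing notes name version 1.06 and the paper another version, and combined both samples of a condition before they deposited the values. The notes name the genome build mm9, while 98.9% of 21519 deposited loci overlapped the gene of that symbol in GRCm38.p6, so coordinates are read in GRCm38.p6. For the aligner and the annotation, no name was given in the sources used here. Listed are 1 FPKM, 2 interval bounds in FPKM and a status per condition. A further 4 columns, of a condition that the sample labels do not list, were not used.

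Differences of log2(FPKM + 0.1) were computed in 11 comparisons. A gene was compared with at least 1 FPKM in either condition and status OK in both, and called with more than 2-fold and separate intervals. Since replicates were combined, no p-value was computed. The intervals cannot be checked against replicates. Sequencing depth cannot be read from FPKM and is unknown. The dose follows the labels, and the legends of the paper give another.

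The 7 genes, the 14 gene lists and the rules were chosen with earlier results of these data known. Genes were named from the 7 members, the 4 targeted genes and, for each member, the 3 genes with the nearest profile. From each list, up to 6 called genes with the highest FPKM could be named, or the 2 highest where none was called. Not all of these were: Mmp12, Il1a, Ly6c2, Ccr2 and Csf1r, for example, are not described above. Zmynd15, and list genes named for being at 0, absent or low, for their share of a sum or as examples outside this rule, were named after their values were seen. Older symbols (Darc, Ccbp2, Emr1) were used as the table lists them, and Ly6g, Trac and Cxcl15 were not analysed under these symbols. As alternatives, the pseudocount was set to 1 or 0.01 FPKM, the filter was dropped or raised to 5 FPKM, conditions were centred on their medians, calls were made at 1.5-fold, or a z from the interval widths was used at a Benjamini-Hochberg q of 0.05. After seeing the data, marker sums were also taken without Itgb3, S100a8 and S100a9, or Cd74. Calls were tested on simulated data. Promoters came from RefSeq and transcripts from GENCODE. Scripts ran in pandas 2.3.3 with numpy 2.4.6 and biopython 1.88 under python 3.11.15, with plots by matplotlib 3.10.9.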

Additional observations from a re-analysis of the deposited data

Results flagged for a closer look

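For 6 of the 7 genes, the c-di-GMP change had opposite signs in 2 genotypes and differed by more than 1 on the log2 scale, a limit set after the data were seen. None of these differences was tested, since each condition has 1 value, and many of the single changes were not called. No decrease of any of the 7 genes with c-di-GMP was called in any genotype. Each negative sign below thus belongs to a change that was not called, and no reversal is shown. Cxcl2 changed by 1.84 in WT, -0.04 in Tmem173-/-, -0.49 in Irf1-/- and 3.998 in BMDCs labelled Irf3/7-/-. Its change differed from that in WT by -1.88 in Tmem173-/- and by -2.34 in Irf1-/-. In BMDCs labelled Irf3/7-/- it exceeded that in Tmem173-/- by 4.03 and that in Irf1-/- by 4.49. The Cxcl3 change in Irf1-/- was -2.76 relative to WT, and that in BMDCs labelled Irf3/7-/- exceeded it by 3.59. For Cxcl5 the same pair differed by 2.78, with the Irf1-/- values near the lower limit of the table.

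Ppbp changed by -0.67 in WT, so that Tmem173-/- and BMDCs labelled Irf3/7-/- differed from it by 1.18 and 1.65, and the latter differed from Irf1-/- by 1.12, although no Ppbp change was called in any genotype. Pf4, at -0.41 in WT and likewise never called, differed by 1.047 in Irf1-/- and 1.35 in BMDCs labelled Irf3/7-/-, and the latter differed from Tmem173-/- by 1.20. The Cxcl16 change in Tmem173-/- was -1.89 relative to WT, and those in Irf1-/- and in BMDCs labelled Irf3/7-/- exceeded it by 1.52 and 1.53.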

How the results depend on the processing

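No paired analysis was possible because the 2 samples of a condition were combined into 1 value before deposition, and for the same reason no sample could be left out. Of 77 counts of called members under the 7 alternatives, 75 stayed within 1.5 times the value given, and no called difference changed direction. A z from the intervals gave 2 members in place of 1 in Irf1-/- after c-di-GMP, with Cxcl1 added. A fold above 1.5 gave 5 in place of 3 in treated Irf1-/- against WT, with Cxcl2 and Cxcl16 added. Among single genes, a minimum of 5 FPKM lost 5 calls, all of Cxcl1 or Cxcl5, and a pseudocount of 1 FPKM lost Cxcl3 in treated Irf3/7-/- against WT. Without a filter, Cxcl5 was called higher in Tmem173-/- than in WT, at 2.02 treated and 1.89 untreated. Median centring, which shifted a condition by at most 0.034 on the log2 scale, and a pseudocount of 0.01 FPKM both added Cxcl2 in treated Irf1-/- against WT and Ppbp in treated Irf1-/- against Irf3/7-/-. Leaving the leading genes out of marker sums, a choice made after seeing the data, reversed 2 of 18 log2 ratios to WT: platelet markers in untreated Tmem173-/- went from -0.73 to 0.73 without Itgb3, and neutrophil markers in untreated Irf1-/- from -0.66 to 0.19 without S100a8 and S100a9. With a pseudocount of 1 FPKM, Cxcl1 kept 74.5% of its WT change in Irf1-/- and 291% in Irf3/7-/-.

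Counts over all genes moved more. For Tmem173-/- after c-di-GMP, 5 genes higher became 0 with a pseudocount of 1 FPKM, 10 with 0.01 FPKM, 3 with a minimum of 5 FPKM, 13 by z and 54 at 1.5-fold, and 1 lower became 4 without a filter, 14 by z and 2 at 1.5-fold. A minimum of 5 FPKM took treated Irf1-/- against WT from 294 to 171 higher, treated Irf3/7-/- against WT from 517 to 277 higher and from 301 to 183 lower, untreated Tmem173-/- from 661 to 421 lower, untreated Irf1-/- from 139 to 70 higher and from 388 to 253 lower, untreated Irf3/7-/- from 129 to 70 higher and from 95 to 42 lower, and treated Irf1-/- against Irf3/7-/- from 362 to 231 higher and from 744 to 492 lower. With a pseudocount of 1 FPKM, the higher counts of these became 183 for treated Irf1-/-, 329 for treated Irf3/7-/-, 78 for untreated Irf1-/- and 71 for untreated Irf3/7-/-, with 47 lower in the last. At 1.5-fold they became 463 higher in treated Irf1-/-, 485 lower in treated Irf3/7-/-, 224 higher in untreated Irf1-/-, 194 higher and 156 lower in untreated Irf3/7-/-, and 581 higher in treated Irf1-/- against Irf3/7-/-.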
